A study of Arabidopsis thaliana with 11 samples.

Results

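The genes described here encode proteins of the small (40S) subunit of the cytosolic ribosome of Arabidopsis thaliana, referred to below as RPS genes. They were given as a list of 49 loci, out of 22121 genes in the tables, and they encode 20 proteins. Every intron listed under these loci was taken, which gave 182 introns out of 121244. The RNA came from 10-day-old wild-type Col-0 seedlings, with no transgene, mutation or treatment in any group. Of the 5 groups, 4 were chromatin-bound RNA, which is the RNA that stays with chromatin after nuclei are washed with a urea buffer, and the remaining group was mRNA. RNAf was the polyadenylated chromatin-bound RNA (2 libraries), RNAe was chromatin-bound RNA freed of both polyadenylated RNA and rRNA (2 libraries), RNAe+RNAf had lost only rRNA (2 libraries), CB-RNA was a separate chromatin preparation also freed of rRNA alone (2 libraries), and mRNA-seq had 3 libraries. Each group had 1 pooled set of read numbers, so there is no spread between replicates and no p-value below.

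The small subunit binds the mRNA and holds the decoding centre, where codons of the mRNA are read by tRNA. In plants nearly every ribosomal protein is encoded by a small family of paralogous genes, so the members of a family supply the same protein to the same particle. Introns are removed from most transcripts while RNA polymerase II is still on the gene. The paper proposes that polyadenylated RNA of the chromatin fraction is most likely made of completed transcripts awaiting release. The part of mature mRNA carried over during isolation was not tested here. The 5ʹSS ratio and the 3ʹSS ratio are the intronic reads divided by the exonic reads beside the 5ʹ and the 3ʹ splice site of an intron, so that a low ratio means that little of the counted RNA still held the intron. Ratios are linear throughout, and intervals are 95% Wilson intervals that cover counting error only.

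All 182 RPS introns began with GT and ended with AG in the RefSeq copy of the TAIR10 genome, and all were present in RefSeq gene models. In 7 genes the first intron lay in the 5ʹ UTR, and the other 175 introns lay within the coding span. Intron length ran between 70 and 749 bp with a median of 102 bp, against 99 bp over all introns. No RPS intron overlapped another annotated gene. The first intron directly followed the start codon, after 3 coding bases, in 13 genes. The first 6 bases were GTAAGT in 18 RPS introns (9.89%, against 9.33% of all introns), GTGAGT in 15 (8.24%, against 4.03%) and GTATGT in 13 (7.14%, against 4.51%), each read on the strand of the gene. The last 3 bases were CAG in 111 RPS introns (61%, against 64% of all introns) and TAG in 62 (34.1%, against 28.2%).

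Reads were counted for 48 RPS genes in RNAf, 47 in RNAe, 48 in RNAe+RNAf, 46 in CB-RNA and 48 in mRNA. AT3G09680, a copy for S23, a protein of the decoding centre, was not counted in any fraction, and its paralogue AT5G02960 was counted in all of them. AT5G59240, a copy for S8, was not counted in RNAe or CB-RNA, and AT4G30800, a copy for S11, was not counted in CB-RNA. The tables held 93330372 exonic reads in RNAf, 15088650 in RNAe, 11171791 in RNAe+RNAf, 31261639 in CB-RNA and 233785720 in mRNA. The median RPS intron had 1068 exonic reads beside its 5ʹSS in RNAf, 77.5 in RNAe, 75 in RNAe+RNAf, 120 in CB-RNA and 8115 in mRNA, so single introns were measured least precisely in RNAe and RNAe+RNAf. Only AT1G58380, a copy for S2, shared exon sequence with other places in the genome (23.2% of its 64-base windows), where reads with more than 1 alignment were not kept. The 5 genes taken as markers of green tissue, such as AT1G67090 for the small subunit of rubisco, were counted in every fraction, and of 3 seed storage genes none was counted on chromatin and 2 were counted in mRNA, AT5G44120 at 2.73 and AT4G28520 at 0.974 exonic reads per splice-site window per 1000000.

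Introns of RPS genes were retained most in RNAe, RNAe+RNAf and CB-RNA, less in the polyadenylated RNA on chromatin and least in mRNA. The median 5ʹSS ratio of RPS introns was 0.0271 in RNAf, 0.178 in RNAe, 0.167 in RNAe+RNAf, 0.22 in CB-RNA and 0.0011 in mRNA. The median 3ʹSS ratio was 0.04 in RNAf, 0.217 in RNAe, 0.204 in RNAe+RNAf, 0.273 in CB-RNA and 0.0015 in mRNA. In every fraction and at both sites the RPS median lay below the median of all introns. The gap was smallest at the 3ʹSS in CB-RNA, where the RPS median was 0.888 of the median of all introns (0.307), and widest at the 5ʹSS in mRNA, where it was 0.172 of that median (0.0064). In mRNA 162 of 179 RPS introns (90.5%) lay below the median of all introns at the 5ʹSS and 167 of 179 (93.3%) at the 3ʹSS, whereas in RNAf 126 (70.4%) and 125 (69.8%) did so. RPS genes also had far more exonic reads than most genes, and the part of read level in these lower ratios was not tested.

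**Figure D1:**
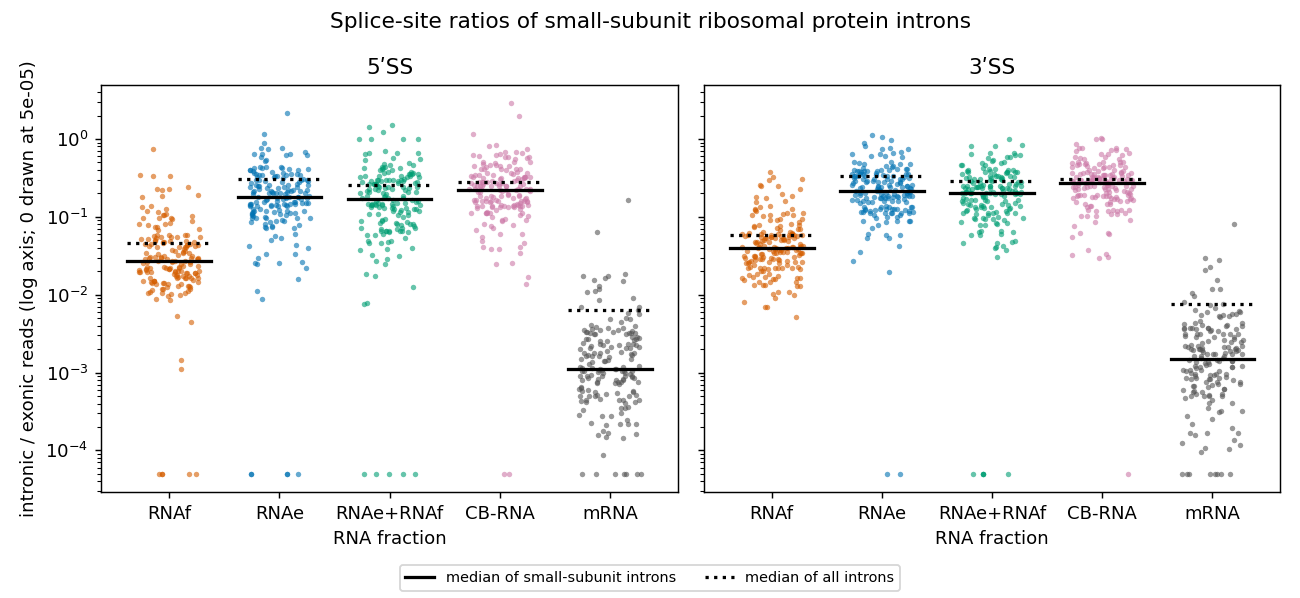
Ratio of intronic to exonic reads (log axis) at the 5ʹSS (left) and 3ʹSS (right) of RPS introns in RNAf, RNAe, RNAe+RNAf, CB-RNA and mRNA, 1 point per intron, with ratios of 0 drawn at the bottom. Solid lines are RPS medians (0.0271 in RNAf, 0.178 in RNAe and 0.0011 in mRNA at the 5ʹSS), each below the dotted median of all introns.

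RNAf was set against mRNA to compare intron retention in the polyadenylated RNA of the chromatin fraction with that in mRNA. The median RPS ratio was higher in RNAf than in mRNA by 0.026 at the 5ʹSS and by 0.0385 at the 3ʹSS. Taken as a mean over ratios of at most 1, the difference at the 5ʹSS was 0.0474. A 2-fold change in the ratio, with 1 read added to intronic and exonic reads and at least 10 exonic reads in both fractions, served as the threshold for a call. At the 5ʹSS 174 of 178 RPS introns were at least 2-fold higher in RNAf, against a background of 78.9% of all introns tested. At the 3ʹSS all 179 tested were higher, against 81.3% of all introns. No RPS intron was at least 2-fold lower at either site, against 2.11% and 1.63% of all introns. The median log2 fold was 4.34 at the 5ʹSS, against 2.26 over all introns, and 4.59 at the 3ʹSS, against 2.38. In mRNA the median RPS intron had 8115 exonic reads beside its 5ʹSS, against 461 over all introns. A 5ʹSS ratio of 0 in mRNA was found in 3.91% of RPS introns and 26.2% of all introns. As 1 read is added, depth enters the folds and calls, and its part was not tested.

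CB-RNA was set against mRNA to compare chromatin RNA as a whole with mature polyadenylated mRNA. All 166 RPS introns tested at the 5ʹSS and all 169 tested at the 3ʹSS were at least 2-fold higher in CB-RNA, where the background was 95.9% and 96.1%, so the count alone says little about RPS genes. None was lower, against 0.211% and 0.109% of all introns. The size of the change was larger in RPS introns, with a median log2 fold of 7.22 at the 5ʹSS and 7.15 at the 3ʹSS, against 4.65 at both sites over all introns. The part of the greater depth of RPS introns in mRNA was not tested here either. Summed over a gene, 45 of 45 RPS genes were at least 2-fold higher in CB-RNA (background 96.2%) and 0 lower (0.0347%), and the highest log2 fold among RPS genes was 8.88 in AT3G48930 (EMB1080), a copy for S11, followed by 8.62 in AT3G11940 (RPS5A), a copy for S5. S5 sits in the head of the subunit near the exit site for tRNA. The lowest were 4.58 in AT3G04770, a copy for SA (3.33 with the 5ʹSS alone and 6.24 with the 3ʹSS alone), 4.90 in AT3G57490, a copy for S2 (3.80 and 4.71), and 5.28 in AT5G28060, a copy for S24 (5.14 and 5.39), so their order differed between the sites.

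RNAf and RNAe are the chromatin-bound RNA with a poly(A) tail and that left after its removal. The paper takes RNAf to be most likely a processing intermediate rather than contaminating mature mRNA. The median RPS ratio differed by -0.151 at the 5ʹSS and -0.177 at the 3ʹSS (RNAf minus RNAe). At the 5ʹSS 148 of 169 RPS introns (87.6%) were at least 2-fold lower in RNAf, against a background of 78.6%, and at the 3ʹSS 149 of 171 (87.1%) were, against 78.2%. Both sites of the same intron were lower in 136 of 168 introns (81%, against 72% of all introns). Only 3 RPS introns were at least 2-fold higher in RNAf at the 5ʹSS (1.78%, against a background of 1.64%), and none was at the 3ʹSS (0.971% of all introns). These were intron 4 of AT3G60770 (S13), intron 1 of AT4G31700 (S6) and intron 4 of AT5G35530 (S3), and at their 3ʹSS the log2 difference was -1.07, 0.77 and 0.18.

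RNAe differed little from RNAe+RNAf in RPS introns. The median ratio was higher in RNAe by 0.0109 at the 5ʹSS and by 0.0129 at the 3ʹSS. The size of this difference moved with the summary, between 0.000331 (mean of ratios of at most 1) and 0.0219 (at least 10 exonic reads) at the 5ʹSS and between 0.0109 (at least 10 exonic reads) and 0.0313 (summed reads) at the 3ʹSS. At the 5ʹSS 28 of 166 introns were at least 2-fold higher in RNAe (16.9%, against a background of 16.7%) and 13 were lower (7.83%, against 9.21%), and at the 3ʹSS 20 of 168 were higher (11.9%, against 15.3%) and 8 lower (4.76%, against 8.10%). Where the Wilson intervals also had to lie apart, 6 were higher (3.61%, against 2.83% of all introns) and 1 lower (0.602%, against 1.11%) at the 5ʹSS, and 7 higher (4.17%, against 2.66%) and 1 lower (0.595%, against 0.941%) at the 3ʹSS. The 2 separate preparations of rRNA-depleted chromatin RNA differed by more than this, with a difference in the median of -0.0529 at the 5ʹSS and -0.0688 at the 3ʹSS (RNAe+RNAf minus CB-RNA). Between them 34 of 164 introns were at least 2-fold lower in RNAe+RNAf at the 5ʹSS (20.7%, against 13.9% of all introns) and 9 higher (5.49%, against 11.2%), and at the 3ʹSS 29 of 167 were lower (17.4%, against 12%) and 7 higher (4.19%, against 9.64%). With intervals apart, 10 were lower (6.10%, against 2.98% of all introns) and 4 higher (2.44%, against 2.47%) at the 5ʹSS, and 13 lower (7.78%, against 2.44%) and 2 higher (1.20%, against 2.07%) at the 3ʹSS. The absolute log2 difference between the preparations had a median of 0.61 at the 5ʹSS and 0.48 at the 3ʹSS, and it is the only measure of spread that these data hold for single RPS introns.

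A few RPS introns stood far above the other introns of their own gene in polyadenylated RNA. In AT5G35530, a copy for S3, which lies where the mRNA enters the subunit, intron 4 had a 5ʹSS ratio of 0.331 in RNAf (371 intronic and 1122 exonic reads, interval 0.294 to 0.372), 0.146 in RNAe (0.0823 to 0.259), 0.292 in RNAe+RNAf, 0.495 in CB-RNA and 0.0153 in mRNA. Intron 2 of the same gene had a 5ʹSS ratio of 0.0109 in RNAf (0.00569 to 0.0207), 0.0333 in RNAe, 0.143 in RNAe+RNAf, 0.122 in CB-RNA and 0.000151 in mRNA. The intervals of the 2 introns lay apart in RNAf, CB-RNA and mRNA, and they overlapped in RNAe and RNAe+RNAf. Both introns were picked by their ratios in RNAf or RNAe, and the intervals take no account of that choice. Intron 4 alone held 795 of the 968 intronic reads of the gene in RNAf (82.1%), and its ratio over both sites was 15.1-fold that of the other 4 introns together.

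AT5G28060, a copy for S24, also had 1 intron far above the others. The 5ʹSS ratio of intron 2 was 0.227 in RNAf (0.201 to 0.257), 0.526 in RNAe, 0.262 in RNAe+RNAf, 0.462 in CB-RNA and 0.0111 in mRNA. Intron 4, the last, had a 5ʹSS ratio of 0.0205 in RNAf (0.0156 to 0.0268), 0.0159 in RNAe, 0.0459 in RNAe+RNAf, 0.0405 in CB-RNA and 0.000916 in mRNA. The ratio of intron 2 was thus above that of intron 4 in all 5 fractions with intervals apart. As the pair was picked by ratios in RNAf and RNAe, its order there was largely set by the choice, which the intervals ignore. Intron 2 held 77.1% of the intronic reads of the gene in RNAf. The 4 introns are shown whole because in each gene they are the one among the highest ratios of all RPS introns in RNAf and the one among the lowest in RNAe. They were read from the RefSeq TAIR10 genome on the minus strand, 5ʹ to 3ʹ, with the first 6 and last 3 bases in capitals. The introns of S3 lie at chr5:13710788-13710861 (intron 4) and chr5:13711838-13711926 (intron 2), and those of S24 at chr5:10070327-10070435 (intron 2) and chr5:10069821-10069917 (intron 4), all between coding exons.
S3 AT5G35530 intron 4: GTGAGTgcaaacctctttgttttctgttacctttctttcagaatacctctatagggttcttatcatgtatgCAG
S3 AT5G35530 intron 2: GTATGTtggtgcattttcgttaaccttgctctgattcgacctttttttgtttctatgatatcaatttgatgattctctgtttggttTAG
S24 AT5G28060 intron 2: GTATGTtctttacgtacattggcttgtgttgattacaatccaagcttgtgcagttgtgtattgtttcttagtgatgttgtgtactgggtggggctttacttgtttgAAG
S24 AT5G28060 intron 4: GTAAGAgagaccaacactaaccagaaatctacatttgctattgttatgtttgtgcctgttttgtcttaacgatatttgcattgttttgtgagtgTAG

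Introns with a ratio in RNAf about 10-fold or more that of the rest of their gene were also found in other families, named here after their values were seen. They included intron 2 of AT5G39850 (S9), at 17.5-fold with 52 of the 53 intronic reads of the gene, intron 1 of AT4G31700 (S6), at 10.5-fold, and intron 1 of AT4G30800 (S11), at 9.69-fold with 28 intronic reads. In AT1G34030, a copy for S18, intron 1 follows the start codon and had a 5ʹSS ratio of 0.345 in RNAf (0.289 to 0.413), 0.294 in RNAe (0.167 to 0.519), 0.358 in RNAe+RNAf, 0.573 in CB-RNA and 0.0119 in mRNA. Introns 2 and 3 of this gene were at 0.0104 and 0.0262 in RNAf and at 0.000974 and 0.00108 in mRNA, with intervals below those of intron 1 in both fractions. Intron 1 was picked by its ratio in RNAf, which the intervals do not take into account. In AT1G04270 (RPS15), whose product S15 lies in the head of the subunit near the site where tRNA enters, intron 3 had a 3ʹSS ratio of 0.197 in RNAf, 0.688 in RNAe, 0.595 in RNAe+RNAf, 0.769 in CB-RNA and 0.00543 in mRNA. At its 5ʹSS this 475 bp intron was at 0.12 in RNAf, 0.0873 in RNAe, 0.145 in RNAe+RNAf, 0.137 in CB-RNA and 0.00704 in mRNA, so the sites differed widely on chromatin in RNAe, RNAe+RNAf and CB-RNA and little in mRNA. Intron 3 held 87% of the intronic reads of AT1G04270 in RNAf, and it is part of 1 of 2 RefSeq transcripts. The ends of these 2 introns, on the minus strand at chr1:12371198-12371462 (S18 intron 1) and chr1:1142101-1142575 (S15 intron 3), are given as the first 12 and last 30 bases.
S18 AT1G34030 intron 1, 5ʹ end: GTAATTagggtt
S18 AT1G34030 intron 1, 3ʹ end: taattgtgtgatttttgttactgcatgTAG
S15 AT1G04270 intron 3, 5ʹ end: GTAATCatttct
S15 AT1G04270 intron 3, 3ʹ end: ttcgaacttgcgttttggttgattaaaCAG

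**Figure D2:**
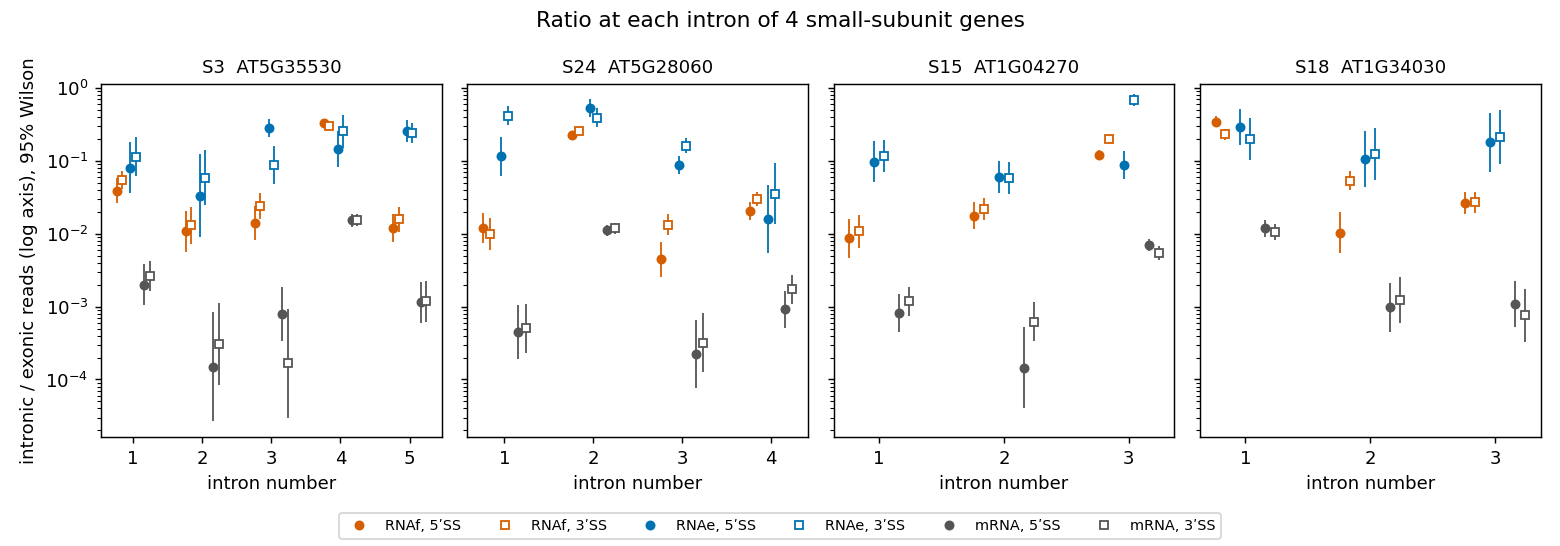
Ratio of intronic to exonic reads (log axis) at each intron of 4 RPS genes in RNAf, RNAe and mRNA, with filled circles for the 5ʹSS, open squares for the 3ʹSS and 95% Wilson intervals as bars. In RNAf intron 4 of S3 (0.331 at the 5ʹSS), intron 2 of S24 (0.227), intron 3 of S15 (0.12) and intron 1 of S18 (0.345) lie above the other introns of their gene, and so they do in mRNA.

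Of 40 RPS genes with at least 3 introns and at least 50 intronic reads in RNAf, 16 had over 50% of these reads in a single intron (40%, against 36.9% of all such genes). In RNAe this was so for 14 of 38 genes (36.8%, against 15.3%), in RNAe+RNAf for 8 of 39 (20.5%, against 17%), in CB-RNA for 8 of 39 (20.5%, against 15%) and in mRNA for 18 of 38 (47.4%, against 40.8%). RPS genes in this count had a median of 4 introns and all genes a median of 7, and with fewer introns an even spread of reads already puts a larger share in each. Over the RPS introns with at least 10 exonic reads in both fractions, the ratio in RNAf followed that in mRNA with a Spearman's rho of 0.53 at the 5ʹSS (178 introns) and 0.61 at the 3ʹSS (179 introns), and that in RNAe with a rho of 0.36 (169 introns) and 0.31 (171 introns). The 2 preparations of rRNA-depleted RNA gave 0.68 (164 introns) and 0.72 (167 introns). Introns of a gene share its reads and fractions differ in depth, so these values are descriptions.

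In mRNA the 5ʹSS ratio of 0.167 of intron 1 of AT2G32060, a copy for S12 of the beak, was the highest among RPS introns with at least 50 exonic reads. This 98 bp intron lies in the 5ʹ UTR (chr2:13640160-13640257, minus strand) and is part of 1 of 3 RefSeq transcripts of the gene. Its ratio rested on 14 intronic and 84 exonic reads at the 5ʹSS, whereas at its 3ʹSS the ratio was 0.00566 with 3884 exonic reads, so exonic reads upstream of the intron were 2.16% of those downstream. By the higher of their sites, introns 3 and 2 of AT5G59240 (S8), the RPS gene with the fewest reads, followed. They were at 0.082 (3ʹSS of intron 3) and 0.0636 (5ʹSS of intron 2). Intron 1 of AT4G31700 (RPS6), a copy for S6, the protein phosphorylated downstream of the TOR kinase, also had uneven reads on its sides. It had 934 exonic reads upstream and 2897 downstream in mRNA (32.2%), and 52 and 606 in RNAf (8.58%). Its 5ʹSS ratio of 0.75 in RNAf, the highest of the RPS introns, therefore rested on 39 intronic and 52 exonic reads (0.497 to 1.13), while its 3ʹSS ratio was 0.371 in RNAf (0.319 to 0.433), 0.212 in RNAe, 0.269 in RNAe+RNAf, 0.364 in CB-RNA and 0.00967 in mRNA. This intron is part of 1 of 2 RefSeq transcripts. These introns of AT2G32060 and AT4G31700 were the only ones of 175 with upstream reads under 50% of downstream reads in mRNA, where the median was 97.9%.

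Intron 1 of AT2G37270 (RPS5B), also in the 5ʹ UTR, was retained more than most RPS introns at both sites. It is part of 1 of 2 RefSeq transcripts. Its 5ʹSS ratio was 0.134 in RNAf, 0.649 in RNAe, 0.545 in RNAe+RNAf, 0.833 in CB-RNA and 0.0175 in mRNA, and its 3ʹSS ratio was 0.125, 0.455, 0.488, 0.719 and 0.0225 in the same fractions. As a class, the 7 introns in the 5ʹ UTR had a median 5ʹSS ratio of 0.0812 in RNAf, 0.649 in RNAe and 0.0035 in mRNA. The 13 first introns directly after the start codon were at 0.0304 in RNAf, 0.233 in RNAe and 0.0015 in mRNA, and the 25 first introns after more than 3 coding bases at 0.0278, 0.136 and 0.00065. These 25 included introns close to the start codon, such as intron 1 of AT4G31700 after 6 coding bases. At the 5ʹSS the medians of the introns in the 5ʹ UTR were thus the highest of these 3 classes of first introns, and at the 3ʹSS in RNAf they were not (0.0605, against 0.0607 directly after the start codon), with 5ʹSS ratios of single introns between 0.0124 and 0.333 in RNAf and between 0.0005 and 0.167 in mRNA. Among all RPS introns, 18 were not part of every RefSeq transcript, those of AT2G32060 and AT2G37270 in the 5ʹ UTR among them. Their median 5ʹSS ratio was 0.0558 in RNAf, 0.203 in RNAe and 0.00255 in mRNA. For the other 164 introns it was 0.0261, 0.169 and 0.0011. Position and transcript annotation overlap here, and their parts were not tested. The rho between ratio and intron length lay between -0.14 (5ʹSS in CB-RNA, 166 introns) and 0.22 (3ʹSS in RNAe, 171 introns) over the 5 fractions and both sites. In RNAe the median 3ʹSS ratio was 0.175 under 100 bp, 0.295 from 100 bp to under 200 bp and 0.268 at 200 bp or more. For RNAf at the 5ʹSS the same length classes had medians of 0.0252, 0.0354 and 0.0226.

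The ratio was more often higher at the 3ʹSS than at the 5ʹSS of an RPS intron. This held for 129 of 178 introns in RNAf (72.5%, against 58.6% of all introns), 105 of 168 in RNAe (62.5%, against 55.5%), 92 of 165 in RNAe+RNAf (55.8%, against 54.4%), 98 of 165 in CB-RNA (59.4%, against 55.1%) and 108 of 179 in mRNA (60.3%, against 46.1%). The widest difference in CB-RNA was in the only intron of AT2G41840, a 525 bp intron in a copy for S2, which lies at the entry channel for mRNA. It had a 3ʹSS ratio of 0.0424 in RNAf, 0.187 in RNAe, 0.202 in RNAe+RNAf, 0.246 in CB-RNA and 0.00165 in mRNA, and a 5ʹSS ratio of 0.015, 0.0292, 0.039, 0.0136 and 0.00112 in the same fractions.

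**Figure D3:**
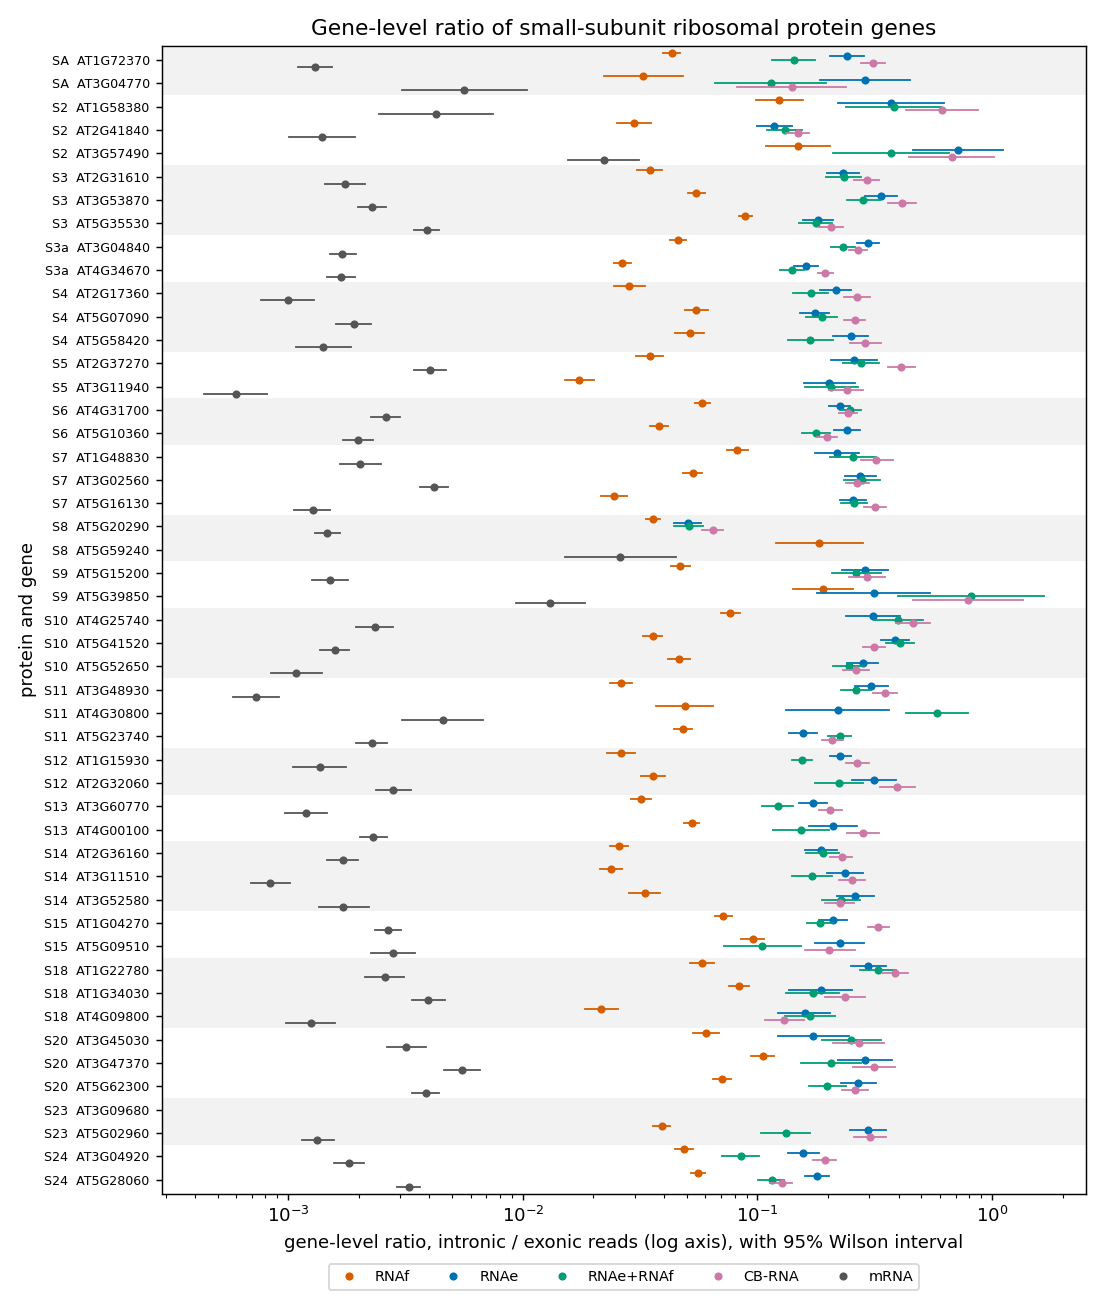
Gene-level ratio, intronic over exonic reads with all introns and both sites of a gene added together (log axis), for each RPS gene grouped by protein, with 95% Wilson intervals as bars. RNAf (orange) lies between mRNA (grey) and the other chromatin fractions in most genes. In AT5G20290 (S8) it is close to them, at 0.0358 against 0.0504 in RNAe.

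Summed over both sites of all its introns, each RPS gene had a higher ratio in RNAf than in mRNA (48 of 48, all at least 2-fold, against a background of 88.5% of genes), with a log2 fold between 2.44 and 5.40 and a median of 4.49, against 2.60 over all genes. The largest log2 folds were 5.40 in AT5G52650, a copy for S10 of the beak, 5.33 in AT1G48830, a copy for S7, and 5.16 in AT5G58420, a copy for S4. The smallest were 2.44 in AT3G04770 (SA), 2.74 in AT3G57490 (S2) and 2.76 in AT5G59240 (S8), which were among the 5 RPS genes with the lowest read level in mRNA. The value of AT3G04770 depended on the site, at 0.63 with the 5ʹSS alone, under 2-fold, and 3.96 with the 3ʹSS alone. Against RNAe, 44 of 46 RPS genes were at least 2-fold lower in RNAf (95.7%, against a background of 75.6%) and 0 were higher (0.290% of all genes), with a median log2 fold of -2.41, against -1.65 over all genes. The most negative values were -3.55 in AT3G11940 (RPS5A) and in AT3G48930 (S11) and -3.43 in AT5G41520 (RPS10B). The least negative were -0.50 in AT5G20290 (S8) and -0.76 in AT5G39850 (S9), both under 2-fold, followed by -1.03 in AT5G35530 (S3). Between RNAe and RNAe+RNAf, 3 of 45 genes were at least 2-fold higher in RNAe (6.67%, against 3.22% of all genes) and 1 was lower (2.22%, against 0.828%). The higher ones were AT3G04770 (SA) at a log2 fold of 1.29, AT5G02960 (S23) at 1.16 and AT5G09510 (S15) at 1.06, and the lower one was AT4G30800 (S11) at -1.36. With the mean of the intron ratios AT3G04770 was at 0.31, under 2-fold. Between the 2 rRNA-depleted preparations, 3 of 44 genes were lower in RNAe+RNAf than in CB-RNA (6.82%, against 2.67%) and 0 higher (0.783% of all genes).

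The S8 gene AT5G20290 differed least between RNAf and RNAe. Its gene-level ratio was 0.0358 in RNAf (0.0335 to 0.0383), 0.0504 in RNAe, 0.0511 in RNAe+RNAf, 0.0645 in CB-RNA and 0.00147 in mRNA. Its ratios in RNAe, RNAe+RNAf and CB-RNA were the lowest of the RPS genes with at least 50 exonic reads, and its log2 fold of -0.50 between RNAf and RNAe was the closest to 0. With the mean of its intron ratios this log2 fold was -1.35, past 2-fold. Within this gene the exonic reads on chromatin changed sharply along its length. Beside the 5ʹSS of introns 1, 2, 3 and 4 there were 1332, 2463, 3464 and 4725 exonic reads in RNAf, 794, 957, 229 and 216 in RNAe, 962, 1185, 452 and 265 in CB-RNA, and 13547, 24610, 27288 and 22632 in mRNA. RNAe+RNAf had 641, 757, 299 and 243. The drop between introns 2 and 3 was seen in RNAe, RNAe+RNAf and CB-RNA and not in RNAf or mRNA. The 5ʹSS ratios of introns 3 and 4 in RNAe were 0.183 and 0.0417, against 0.00882 and 0.0251 for introns 1 and 2.

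Paralogues that supply the same protein differed in retention, and the 3 widest differences involved genes with few reads. In RNAf the gene-level ratio of the highest copy was 5.13-fold that of the lowest for S8 (AT5G59240 over AT5G20290), 4.99-fold for S2 (AT3G57490 over AT2G41840), 4.06-fold for S9 (AT5G39850 over AT5G15200), 3.86-fold for S18 (AT1G34030 over AT4G09800) and 3.35-fold for S7 (AT1G48830 over AT5G16130). In the S8, S2 and S9 families the copy with the lower ratio also supplied 99.6%, 85.8% and 97% of the level in mRNA summed over the listed copies. In the S18 and S7 families the reads were shared more evenly, with 40.8% and 47.7% in the leading copy, and intervals in RNAf were apart, at 0.0833 (0.0756 to 0.0918) in AT1G34030 against 0.0216 (0.0184 to 0.0254) in AT4G09800 for S18, and at 0.0822 (0.0743 to 0.091) in AT1G48830 against 0.0245 (0.0216 to 0.0278) in AT5G16130 for S7. Both families were picked by their wide spread in RNAf, and the intervals take no account of this. The closest paralogues in RNAf were those for S24, where the ratios differed 1.15-fold. Across the 20 proteins the level in mRNA summed over the counted listed copies ran between 55.1 for S12 and 117 for S10. The unit is that defined below for single genes, and the range was narrower than that between the single genes. These sums need not cover whole families. S23 rested on AT5G02960 alone, and AT1G59359, which has the RefSeq description of the S2 copies, was not on the list.

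**Figure D4:**
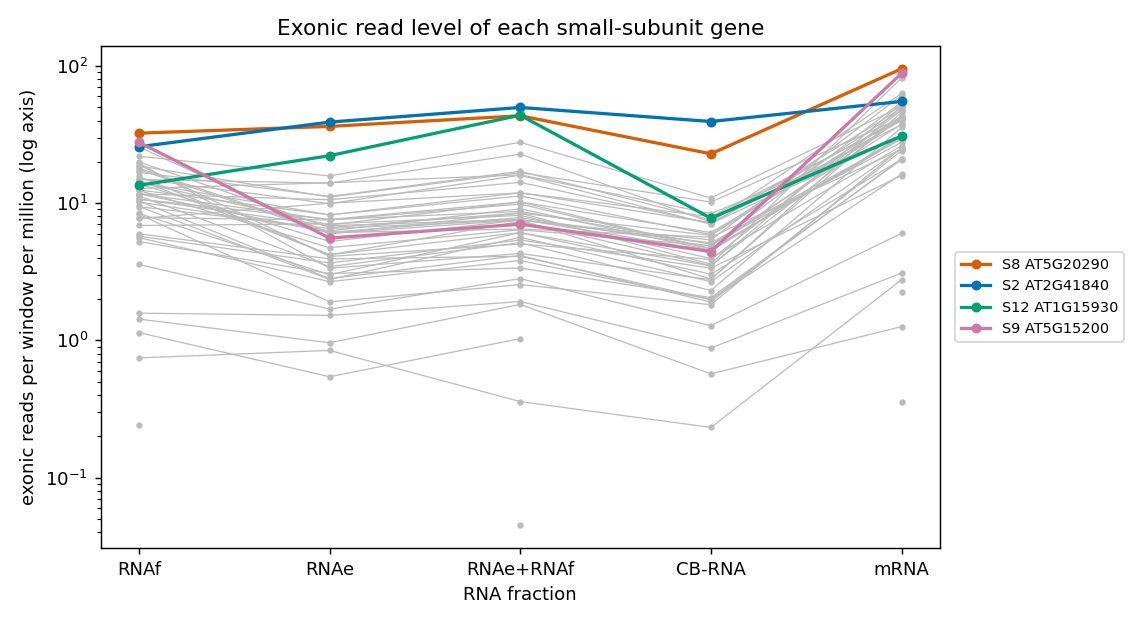
Level, the exonic reads per splice-site window per 1000000 exonic reads of the table (log axis), of each RPS gene in RNAf, RNAe, RNAe+RNAf, CB-RNA and mRNA, with lines joining the values of a gene. S8 AT5G20290 and S2 AT2G41840 stay high in all chromatin fractions, with AT2G41840 at 39.0 in RNAe and 55.2 in mRNA, while S9 AT5G15200 is at 5.57 in RNAe and 88.4 in mRNA.

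RPS genes took a larger share of the exonic reads in mRNA than on chromatin. The share was 0.451% in RNAf, 0.266% in RNAe, 0.371% in RNAe+RNAf, 0.19% in CB-RNA and 1.31% in mRNA. Level is given as exonic reads per splice-site window per 1000000 exonic reads of the table, and its median over RPS genes was 11.7 in RNAf, 6.11 in RNAe, 7.55 in RNAe+RNAf, 4.59 in CB-RNA and 33.5 in mRNA, against 2.38, 2.55, 2.67, 2.4 and 2.1 over all genes. The level was at least 2-fold lower in RNAf than in mRNA in 43 of 48 RPS genes (89.6%, against a background of 17.4%), with a median log2 difference of -1.52, against 0.12 over all genes. It was at least 2-fold higher in none (22.4% of all genes). It was at least 2-fold lower in CB-RNA than in mRNA in 44 of 45 (97.8%, against 21.2%), with a median of -2.78. Within a fraction of whole seedlings, the number of cells that use a gene and the RNA per cell cannot be told apart. Level is relative to the exonic reads of its own fraction, and the cause of the lower level on chromatin was not tested.

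Between RNAf and RNAe, the level was at least 2-fold higher in RNAf in 20 of 46 RPS genes (43.5%, against 15.2% of all genes) and lower in none (20% of all genes), with a median log2 difference of 0.76, against -0.05. With the last intron alone this median was 1.67. Between RNAe and RNAe+RNAf the level was at least 2-fold higher in RNAe in 0 of 45 RPS genes (1.87% of all genes) and lower in 2 (4.44%, against 4.33%). The level in RNAe+RNAf exceeded that in CB-RNA in all 44 RPS genes compared, with a median log2 difference of 0.94, against 0.15 over all genes. It was at least 2-fold higher in 19 (43.2%, against a background of 9.31%) and lower in 0 (2.64%). The share past 2-fold was thus about the same between the 2 preparations as between RNAf and RNAe. The highest levels in mRNA were 95.5 in AT5G20290 (S8), 88.4 in AT5G15200 (S9), 81.9 in AT5G02960 (S23), 63.1 in AT1G04270 (S15) and 61.1 in AT5G41520 (S10). In RNAf AT5G20290 again led at 32.4, followed by AT5G15200 at 27.8 and AT2G41840 (S2) at 25.8. AT1G15930, a copy for S12, was at 13.5 in RNAf, 22.2 in RNAe, 43.8 in RNAe+RNAf, 7.77 in CB-RNA and 30.9 in mRNA, so its level differed most between fractions that had both lost rRNA alone. The lowest levels in mRNA were 0.356 in AT5G59240 (S8), 1.26 in AT3G04770 (SA), 2.25 in AT4G30800 (S11), 2.77 in AT5G39850 (S9) and 3.10 in AT3G57490 (S2), and the same 5 genes were lowest in RNAf.

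Exonic reads rose towards the 3ʹ end of RPS genes in RNAf. Among the 42 RPS genes with at least 3 introns, the reads beside the last intron exceeded those beside the first in all 42 in RNAf (97% of all genes), in 26 of 41 in RNAe (42.3% of all genes), in 31 of 42 in RNAe+RNAf (56%), in 29 of 40 in CB-RNA (56.2%) and in 34 of 42 in mRNA (80.6%). The median log2 fold of the last intron over the first was 1.23 in RNAf, 0.28 in RNAe, 0.74 in RNAe+RNAf, 0.48 in CB-RNA and 0.50 in mRNA, against 1.45, -0.26, 0.24, 0.22 and 0.38 over all genes. RPS genes were thus above the median gene in RNAe and below it in RNAf. Single genes spread widely on chromatin, between -4.70 and 2.84 in RNAe and between 0.21 and 2.72 in RNAf. The value of -4.70 belonged to AT3G04770 (SA), with 1 read beside its last and 51 beside its first intron. In AT5G20290 (S8) the value was 1.62 in RNAf, -2.28 in RNAe, -1.66 in RNAe+RNAf, -2.31 in CB-RNA and 0.50 in mRNA. The median difference in 5ʹSS ratio, last minus first intron, was -0.0037 in RNAf, -0.0288 in RNAe and 0.0009 in mRNA, against 0.0109, 0.107 and 0.0027 over all genes. At the 3ʹSS it was -0.0082 in RNAf, -0.0867 in RNAe and 0.0008 in mRNA, against 0.0069, 0.0994 and 0.0029 over all genes. The last intron had the higher 5ʹSS ratio in 19 of 42 RPS genes in RNAf (45.2%, against 56.1% of all genes). This was so in 18 of 40 in RNAe (45%, against 61.5%) and in 30 of 42 in mRNA (71.4%, against 57.8%).

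**Figure D5:**
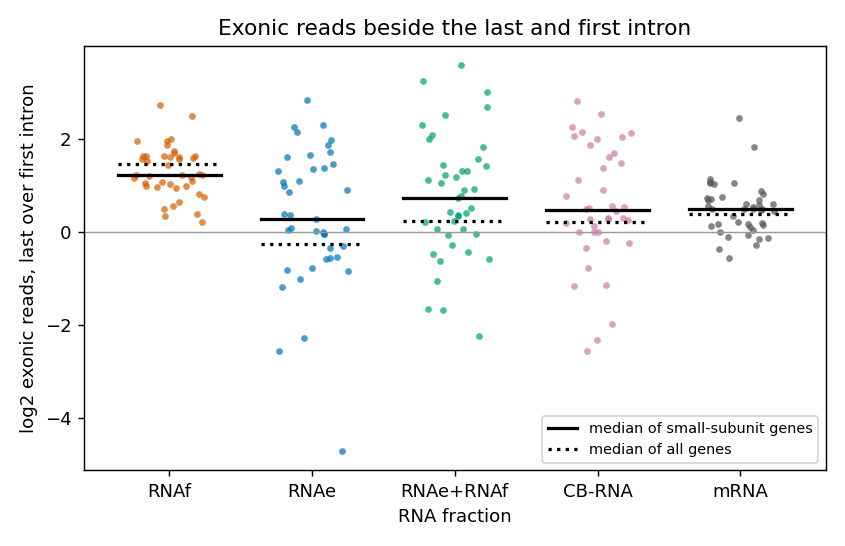
Log2 of the exonic reads beside the last over the first intron, both splice sites added, for each RPS gene with at least 3 introns in RNAf, RNAe, RNAe+RNAf, CB-RNA and mRNA. Solid lines are RPS medians (1.23 in RNAf, 0.28 in RNAe, 0.50 in mRNA) and dotted lines medians of all genes, and all 42 RPS genes lie above 0 in RNAf.

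Other ribosomal protein genes had higher median ratios than RPS genes in both RNAf and mRNA. The median 5ʹSS ratio of RPS introns was 0.0271 in RNAf and 0.0011 in mRNA. It was 0.0463 in RNAf and 0.0026 in mRNA over the 80 counted introns of the further 40S genes, and 0.0443 and 0.0022 over the 241 counted introns of genes for the large (60S) subunit. The median log2 fold of RNAf over mRNA at the 5ʹSS was 4.34 in RPS introns, 4.18 in the further 40S introns and 4.13 in 60S introns. At the gene level RNAf over RNAe had a median log2 fold of -2.41 in RPS genes, -2.17 in the further 40S genes and -2.02 in 60S genes, and the level of RNAf over mRNA had medians of -1.52, -1.52 and -1.32. The level of RNAf over RNAe had medians of 0.76 in RPS genes and 1.17 in both other lists. The level of RNAe+RNAf over CB-RNA had medians of 0.94 in RPS genes, 0.99 in the further 40S genes and 1.03 in 60S genes. It was at least 2-fold higher in 43.2%, 48.3% and 51.9% of them, so these shifts were not particular to RPS genes. No difference between these lists was tested.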

How the data were processed

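Strand-specific libraries of chromatin-bound RNA and mRNA from seedlings were sequenced. Per the submitters' processing notes, reads passed through Trimmomatic 0.39, HISAT2 2.2.0, SAMtools 1.3.1 and StringTie, with TAIR10 as the genome. The authors kept uniquely aligned reads, took genes with an FPKM of at least 1, and counted reads on the intronic and exonic side of each splice site. The deposited tables hold these read counts and the deposited ratio of intronic to exonic counts, 1 set of values per group with the libraries joined, and the width of the counted window is not given in the sources used here. No column belonged to a sample outside the series (0 columns).

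Medians of intron ratios, and differences between medians or between last and first introns, used the deposited ratios. Folds, gene-level ratios and the ratios of named introns were computed from the counts. Deposited ratios differed from those of the counts by at most 5.00e-05. Calls between fractions used a 2-fold change with a pseudocount of 1 read and at least 10 exonic reads in both fractions, and gene-level folds used at least 50. The tables held between 11171791 (RNAe+RNAf) and 233785720 (mRNA) exonic reads. Intervals are 95% Wilson intervals of the intronic share, turned into ratios, and cover counting error only, since reads carry no molecular identifiers. Sequences and positions came from the RefSeq copy of TAIR10, matched to the tables by intron coordinates. Python 3.11.15 with numpy 2.4.6, pandas 2.3.3, scipy 1.17.1 and matplotlib 3.10.9 was used, and the scripts were tested on simulated data.

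The genes and lists were chosen with earlier results of these data known. Named were the 3 highest and 3 lowest genes by log2 gene-level ratio in each main pair, the 8 introns with the highest ratio in mRNA and in RNAf and the 5 with the lowest in RNAe (at least 50 exonic reads), the 5 families with the widest spread in RNAf, the 5 genes at each end of the level in mRNA and in RNAf, and genes not counted in a fraction. Other genes and introns in the text were chosen after their values were seen. Alternatives changed the read minimum, pseudocount, call rule, summary, splice sites, scaling and introns used.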

Additional observations from a re-analysis of the deposited data

How the results depend on the processing

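Of 161 alternative values for the summaries of RPS genes, 140 stayed within 1.5 times (counts) or within the 95% interval of the median over genes or introns (other values). A reversal of direction could not occur for a count, and none of the other values reversed. This 95% interval treats introns or genes as independent, though introns of a gene share its reads. It does not cover spread between replicates, and it is wide beside small differences. The difference between RNAe and RNAe+RNAf ran from 0.000331 (mean) to 0.0219 (at least 10 reads) at the 5ʹSS and up to 0.0313 (summed reads) at the 3ʹSS. That between RNAe+RNAf and CB-RNA at the 5ʹSS was -0.033 with the mean. Of 72 values for named genes 13 moved beyond their counting interval, with none reversed. The difference between RNAf and mRNA was 0.0474 at the 5ʹSS and 0.0566 at the 3ʹSS with the mean of ratios up to 1, and 0.0358 and 0.048 with summed reads. That between CB-RNA and mRNA at the 3ʹSS was 0.302 with the mean. With a pseudocount of 0.1, 4 introns were lower in RNAf than in mRNA at the 5ʹSS. For RNAe against RNAe+RNAf, a minimum of 50 exonic reads left 17 higher and 7 lower introns at the 5ʹSS and 4 lower at the 3ʹSS, and a minimum of 1 gave 20 lower at the 5ʹSS. With intervals apart there were 6 higher and 1 lower at the 5ʹSS, and 7 higher and 1 lower at the 3ʹSS. For RNAe+RNAf against CB-RNA, intervals apart left 4 higher and 10 lower at the 5ʹSS, and 2 higher and 13 lower at the 3ʹSS. The median log2 level from the last intron alone was -1.08 for RNAf over mRNA and 1.67 for RNAf over RNAe. The median log2 of last over first intron in mRNA was 0.76 with the 5ʹSS alone. The cause of these shifts was not tested.

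No paired analysis was possible because each table holds values joined over the libraries of a group. For the same reason leaving out each replicate and fitting a replicate block were not run, and the difference between the 2 rRNA-depleted preparations is the only measure of spread. Depth limits single introns most in RNAe and RNAe+RNAf.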
